A study of Mus musculus with 24 samples.

Results

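Fully grown mouse oocytes of wild-type (WT) females were sequenced after hormone stimulation, the group called FGO, and without it, the group called nFGO. The comparison of these groups is described here across genes. It rests on 2 WT FGO libraries and 2 WT nFGO libraries, 4 of the 24 samples of the series and of its 16 RNA-seq libraries. They were taken by genotype, stage and collection as the labels give them, with no use of measured values. Each library was made from 20 oocytes over 70 µm in diameter, of strain B6/129 and genotype Snf2h(fl/fl), which is the floxed allele with no Cre named. The knockout (KO) groups used for comparison, also FGO and nFGO with 2 libraries each, carry Snf2h(fl/fl) with ZP3-Cre, a Cre driven by the promoter of an egg coat gene that is active in growing oocytes. Snf2h is the chromatin remodeller encoded by Smarca5. WT growing oocytes of the stages GO1 and GO2 gave 4 further libraries. The labels do not name the hormone, the age of the females or whether replicates came from separate females. The p-values therefore measure a spread between replicate libraries that may be technical. That spread was estimated over all 16 RNA-seq libraries in 8 groups, which include KO growing oocytes of GO1 and GO2. The 4 nFGO libraries of both genotypes are labelled polyA RNA and the other 12 total RNA, while the protocol names 1 and the same cDNA kit. Hormone, RNA label and time of deposition fall together. An effect of hormone and an effect of any difference in preparation or batch therefore cannot be told apart in any result below.

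A fully grown oocyte is held in prophase of the first meiotic division by cyclic AMP, which the oocyte makes itself and which its follicle helps to keep high. Gonadotropins act on the somatic cells of the follicle rather than on the oocyte. A follicle-stimulating signal enlarges the follicles, and an ovulatory signal lets the arrest end. The oocyte stores large amounts of messenger RNA, many with short poly(A) tails, and near the end of growth it largely stops transcription, so RNA levels then change mainly through stability and through tail length.

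In the 4 libraries the RPKM values (reads scaled to transcript length and to library size) summed to 964523 to 1011538, and 12733 to 12812 genes reached 1 RPKM. Across the 14557 genes tested, log2 values correlated at r = 0.983 between the WT FGO libraries and 0.986 between the WT nFGO libraries, against 0.975 to 0.98 between groups. Genes are not independent replicates. WT FGO replicate 2 stood apart for Smarca5, the gene deleted in the knockout. Smarca5 had 48.7 and 13.9 RPKM in the WT FGO libraries, against 45.1 and 48.0 RPKM in the WT nFGO libraries, while all 4 KO libraries lay at 1.32 RPKM or below. Its WT difference did not pass the test (log2 difference -0.80, limma with Benjamini-Hochberg adjusted p = 0.34), but it did without WT FGO replicate 1. Results without WT FGO replicate 2 are given beside the main counts.

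Few genes passed the test between the groups. With 2 libraries a group small changes are often missed, so the number called is not the number that differ. Differences were taken on log2(RPKM + 1), which understates the change of genes near 1 RPKM, and tested with limma. A gene was called at a Benjamini-Hochberg adjusted p under 0.05 over all genes tested. In WT FGO 118 genes were higher than in WT nFGO (0.811 percent of those tested) and 274 were lower (1.88 percent), 392 in all (2.69 percent). Of the 392, 69 higher and 99 lower genes changed at least 2-fold. The median log2 difference of all genes was -0.00719, and 16.9 percent of genes had an unadjusted p under 0.05. Without WT FGO replicate 1 there were 82 higher and 188 lower calls, without WT FGO replicate 2 70 and 133, without WT nFGO replicate 1 75 and 128, and without WT nFGO replicate 2 55 and 71. With each of the 4 libraries left out in turn, 95 of the 392 genes kept their call every time, 46 higher and 49 lower. A fit of the 4 compared libraries alone, with no spread taken from other groups, called 106 genes, of which 92 were among the 392.

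**Figure D1:**
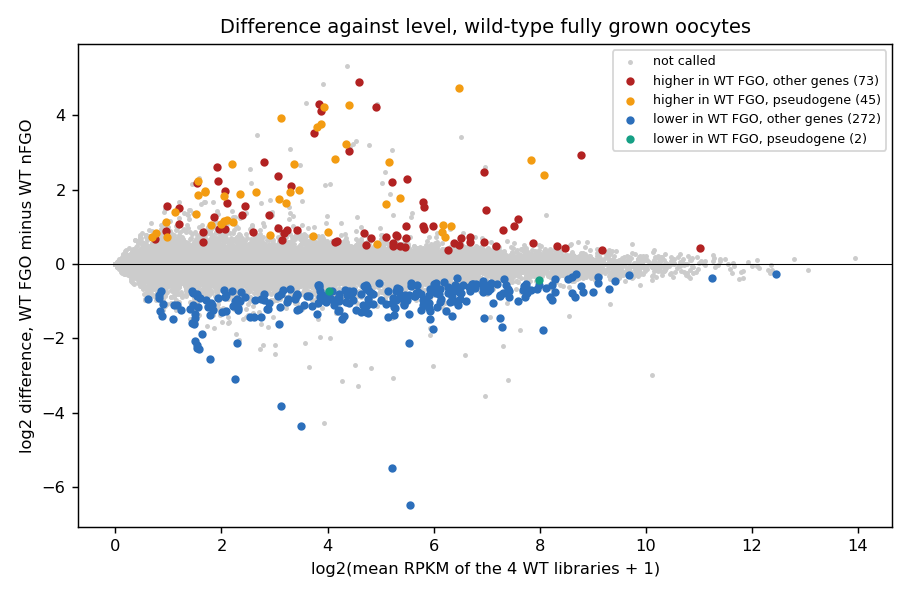
Log2 difference of RPKM (WT FGO minus WT nFGO, y axis) against log2 of the mean RPKM of the 4 WT libraries plus 1 (x axis), 1 point per gene tested. Called genes are coloured, and the 45 called pseudogenes that were higher in WT FGO stand beside 2 that were lower.

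A second deposited measure was set beside the RPKM values, the mean WT count of each gene from the authors' differential expression output. It has no value per library, so it carries no error. The log2 ratio of the mean counts in the authors' deposited table, WT FGO over WT nFGO, was taken with its median of 0.331 removed, and a limit of 0.5 was chosen after the data were seen. Past this limit lay 90 of the 118 higher genes (76.3 percent) and 109 of the 274 lower genes (39.8 percent), in the direction of the RPKM difference. Of all genes tested, 6.12 percent lay past the limit as higher and 7.18 percent as lower. The remaining calls lay within the limit, apart from Gm10552, which went the other way.

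**Figure D2:**
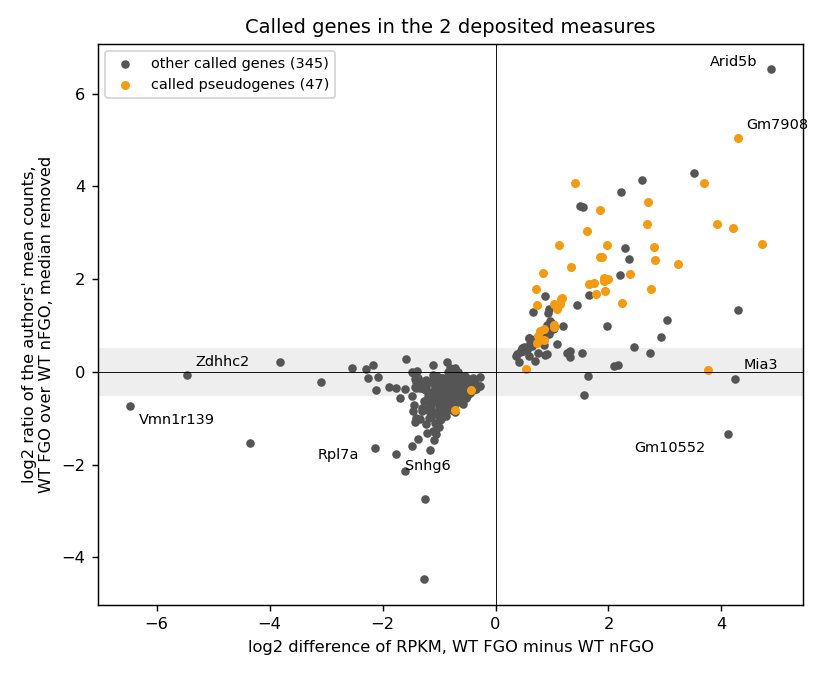
Log2 ratio of the authors' mean counts with the median removed (y axis) against the log2 difference of RPKM (x axis), WT FGO over WT nFGO, for the 392 called genes. The grey band marks ratios within 0.5, and Zdhhc2 and Mia3 lie in it in spite of large RPKM differences.

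Zfp979 (chromosome 4, 147611937 to 147642513, minus strand, mm10), which encodes a zinc finger protein, rose in WT FGO. It had 299 and 237 RPKM in the WT FGO libraries, against 115 and 116 RPKM in the WT nFGO libraries. Both WT FGO libraries lay above both WT nFGO libraries, and the log2 difference was 1.20 ± 0.12 (SE, n = 2 each, limma adjusted p = 0.000153). It kept its call with each of the 4 libraries left out, and its mean count in the authors' deposited table was 9774 in WT FGO against 3936 in WT nFGO. The KO libraries showed a smaller difference, with 117 and 113 RPKM in KO FGO against 95.5 and 82.2 RPKM in KO nFGO (log2 difference 0.37, adjusted p = 0.103). The difference between genotypes was not called. How reads that also match related genes were assigned is not given in the sources used here, so the level of Zfp979 carries that uncertainty. Other rises lay near each other on the genome. Gm6710, Gm14399 and Gm14322 lie on chromosome 2 between 175129493 and 177770472. C87414, AA792892, E330014E10Rik and Gm6367 lie on chromosome 5 between 93634993 and 95804708.

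Sp110 (chromosome 1, 85576899 to 85598817, minus strand), a nuclear body protein gene that was listed here among genes expressed at the 2-cell stage, was higher in WT FGO. Its level was 226 and 189 RPKM in WT FGO and 113 and 105 RPKM in WT nFGO, with a log2 difference of 0.92 ± 0.13 (SE, adjusted p = 0.00213). It rose in KO oocytes too, by a log2 difference of 1.13. Its ratio of mean counts, at 0.38, stayed within the limit of 0.5. It overlaps G530012D18Rik on the other strand, which averaged 106 RPKM in WT FGO and 170 RPKM in WT nFGO, and reads of the pair cannot be told apart if strand was not used in counting.

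Sebox (chromosome 11, 78503447 to 78505081, plus strand), a homeobox gene of the oocyte, was called higher with 115 and 108 RPKM in WT FGO against 68.5 and 69.0 RPKM in WT nFGO (log2 difference 0.69 ± 0.16, adjusted p = 0.0474). Its call was lost with any 1 of the 4 libraries left out. Defb41 (chromosome 1, 18250980 to 18265138, minus strand), a gene of the beta-defensin family of antimicrobial peptides, had 205 and 164 RPKM in WT FGO against 76.3 and 57.7 RPKM in WT nFGO (log2 difference 1.45 ± 0.30, adjusted p = 0.0233). That call too was lost in each fit with 1 library fewer. In KO oocytes the order of Defb41 was turned, with 161 and 303 RPKM in KO FGO and 388 and 370 RPKM in KO nFGO, a difference that did not pass the test (adjusted p = 0.16).

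Arid5b (chromosome 10, 68092520 to 68278740, minus strand), which encodes a DNA-binding protein with an AT-rich interaction domain, had the largest log2 difference among the rises at 5 RPKM or more. It stood at 27.8 and 64.0 RPKM in WT FGO and at 0.484 and 0.456 RPKM in WT nFGO (log2 difference 4.88 ± 1.06, adjusted p = 0.0319). The mean count in the authors' deposited table was 4332 in WT FGO and 36.5 in WT nFGO. The adjusted p rose above 0.05 with any 1 library left out, to 0.173 at most. The 8 groups of RNA-seq libraries share 1 estimate of spread, and Arid5b varied within another group. KO nFGO replicate 1 had 0.0633 RPKM and KO nFGO replicate 2 had 32.8 RPKM, while KO FGO had 38.2 and 63.9 RPKM. The growing libraries were split by stage, at 29.2 and 31.3 RPKM in GO1 and 0.163 and 0.11 RPKM in GO2.

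Pseudogenes made up a large share of the rises. Of the 118 higher genes 45 (38.1 percent) carry a pseudogene biotype in RefSeq, against 2 of the 274 lower genes (0.73 percent) and 915 of the 14557 genes tested (6.29 percent). For 43 of the 45 the authors' mean counts moved past the limit in the same direction. Higher genes also spanned less of the genome, with a median span of 3.16 kb against 43.4 kb for lower genes and 20.3 kb for all genes tested. Among protein-coding genes alone the median was 14.4 kb for higher genes, 47.6 kb for lower genes and 26.1 kb for all tested. Most such pseudogenes are intronless copies of processed messenger RNAs, and how reads shared with a parent gene were assigned is not given in the sources used here, so the level of each copy is uncertain.

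Rps27a-ps2 (chromosome 9, 83409660 to 83410126, plus strand) is named as a copy of Rps27a, which encodes a ubiquitin and ribosomal protein fusion. The copy had 23.7 and 32.3 RPKM in WT FGO, against 0.814 and 0.324 RPKM in WT nFGO (log2 difference 4.21 ± 0.22, adjusted p = 5.03e-07). Rps27a itself was lower, at 238 and 243 RPKM in WT FGO against 359 and 358 RPKM in WT nFGO (log2 difference -0.57, adjusted p = 0.0023). Copy and parent therefore moved in opposite directions.

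A pair of further copies, chosen after their values were seen, differ in what the parent did. Tcea1-ps1 had 103 and 110 RPKM in WT FGO against 48.7 and 54.7 RPKM in WT nFGO (log2 difference 1.03), whereas Tcea1, a transcription elongation factor gene, was lower in WT FGO (log2 difference -0.47). Ube2n-ps1 had 14 and 18.6 RPKM in WT FGO against 1.96 and 5.34 RPKM in WT nFGO (log2 difference 1.98), while its parent Ube2n, a ubiquitin-conjugating enzyme gene, differed by 0.08 and was not called. Of 198 tested genes with a name that marks such a copy, 9 rose and 0 fell, beside the 0.811 percent of all genes that rose. Limma gave these counts at the adjusted threshold. The parent was tested for 7 of the 9, and 2 of these parents fell.

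Other copies were also higher in WT FGO. Gm4149 (chromosome 13, 75644896 to 75645171) had 164 and 175 RPKM in WT FGO and 4.45 and 6.67 RPKM in WT nFGO (log2 difference 4.72, adjusted p = 1.62e-08). Gm4149 overlaps the microRNA gene Mir682 on the same strand, which averaged 36.8 RPKM in WT nFGO and was listed at 0 in WT FGO, so the pair shares sequence and moved in opposite directions. Vamp7-ps (chromosome 2, 174046619 to 174047273) had 16.2 and 14.5 RPKM in WT FGO against 0.159 and 0 RPKM in WT nFGO. Gm7908 (chromosome 15, 73407489 to 73408239), which lies within Ptk2, had 41.8 and 37.2 RPKM in WT FGO against 0.785 and 1.41 RPKM in WT nFGO (log2 difference 4.29, adjusted p = 6.12e-08). For each of these 3, the 4 nFGO libraries of both genotypes lay below all 12 other libraries. Vamp7-ps, Gm4149 and Gm7908 kept their calls with each of the 4 WT libraries left out.

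Some cytosolic ribosomal protein genes were lower in WT FGO, while most did not pass the test. Of 84 tested, 9 fell and 0 rose in the limma test, beside 1.88 percent lower and 0.811 percent higher over all genes. Their median log2 difference was -0.17, and 75 of the 84 lay below 0, against 51 percent of all genes. At an unadjusted p under 0.05 the list held 35 genes. In the authors' mean counts 6 of the 9 lay past the limit. Between 5 and 7 members fell with 1 library left out, 5 of them without WT FGO replicate 2, and 3 in a fit of the 4 compared libraries alone. In KO oocytes 17 of the 84 fell and 0 rose, beside 2.37 percent lower over all genes, with a median of -0.24.

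Rpl7a (chromosome 2, 26910764 to 26913318, plus strand), which encodes a protein of the large ribosomal subunit, fell furthest. It had 14.7 and 18 RPKM in WT FGO, against 74.6 and 75.2 RPKM in WT nFGO (log2 difference -2.13 ± 0.18, adjusted p = 3.14e-05). The mean count in the authors' deposited table was 350 in WT FGO and 866 in WT nFGO. Rps2 (chromosome 17, 24718116 to 24721929, plus strand), of the small subunit, had 23.4 and 26.9 RPKM in WT FGO and 69.0 and 61.3 RPKM in WT nFGO (log2 difference -1.34 ± 0.12, adjusted p = 8.35e-05). For both genes the growing libraries were close to WT FGO, at 16.0 to 17.2 RPKM for Rpl7a and 26.1 to 30.4 RPKM for Rps2. In both, the 4 nFGO libraries lay above all 12 others, and the call held with each WT library left out.

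Rpl35a had 232 and 181 RPKM in WT FGO against 374 and 386 RPKM in WT nFGO (log2 difference -0.89, adjusted p = 0.00159). Rpl37a had 115 and 104 RPKM in WT FGO against 210 and 180 RPKM in WT nFGO (log2 difference -0.83, adjusted p = 0.00162). The calls of Rpl35a and Rpl37a held with each library left out and were lost in the fit of the compared libraries alone. Rpl37, one of the most abundant members that did not pass, had 1537 and 1510 RPKM in WT FGO against 1674 and 1795 RPKM in WT nFGO (log2 difference -0.19, adjusted p = 0.231). Ribosomal protein genes have many pseudogene copies, so these levels too depend on how shared reads were assigned.

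Ppia (chromosome 11, 6415443 to 6419817, plus strand), the gene of the peptidyl-prolyl isomerase cyclophilin A, also fell. Its level was 75.5 and 69.8 RPKM in WT FGO and 251 and 221 RPKM in WT nFGO, a log2 difference of -1.68 ± 0.13 (adjusted p = 1.28e-05). The growing libraries were higher than both, at 477 to 663 RPKM. Snhg6 (chromosome 1, 9941959 to 9944118, minus strand), a long noncoding RNA that hosts small nucleolar RNAs, had 28.8 and 27.3 RPKM in WT FGO against 102 and 92.5 RPKM in WT nFGO (log2 difference -1.76, adjusted p = 0.0223). Its call was lost with any 1 WT library left out.

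Hivep1, Hdlbp and Cobll1 fell in both measures and kept their calls with each library left out. Hivep1 (chromosome 13, 42052021 to 42192537, plus strand), a zinc finger transcription factor gene, had 88.7 and 71.8 RPKM in WT FGO against 215 and 228 RPKM in WT nFGO (log2 difference -1.46 ± 0.16, adjusted p = 0.000326). Hdlbp (chromosome 1, 93405940 to 93478815, minus strand) encodes vigilin, a protein that binds messenger RNA through many KH domains. It had 71.2 and 60.4 RPKM in WT FGO and 174 and 186 RPKM in WT nFGO (log2 difference -1.44 ± 0.16, adjusted p = 0.000358). Cobll1 (chromosome 2, 65088339 to 65239403, minus strand), a relative of the actin nucleator cordon-bleu, had 34.9 and 27.7 RPKM in WT FGO against 87.0 and 89.2 RPKM in WT nFGO (log2 difference -1.47 ± 0.17, adjusted p = 0.000596). All 3 fell in KO oocytes as well, by 1.04 for Hivep1, 0.78 for Hdlbp and 0.90 for Cobll1 on the log2 scale.

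**Figure D3:**
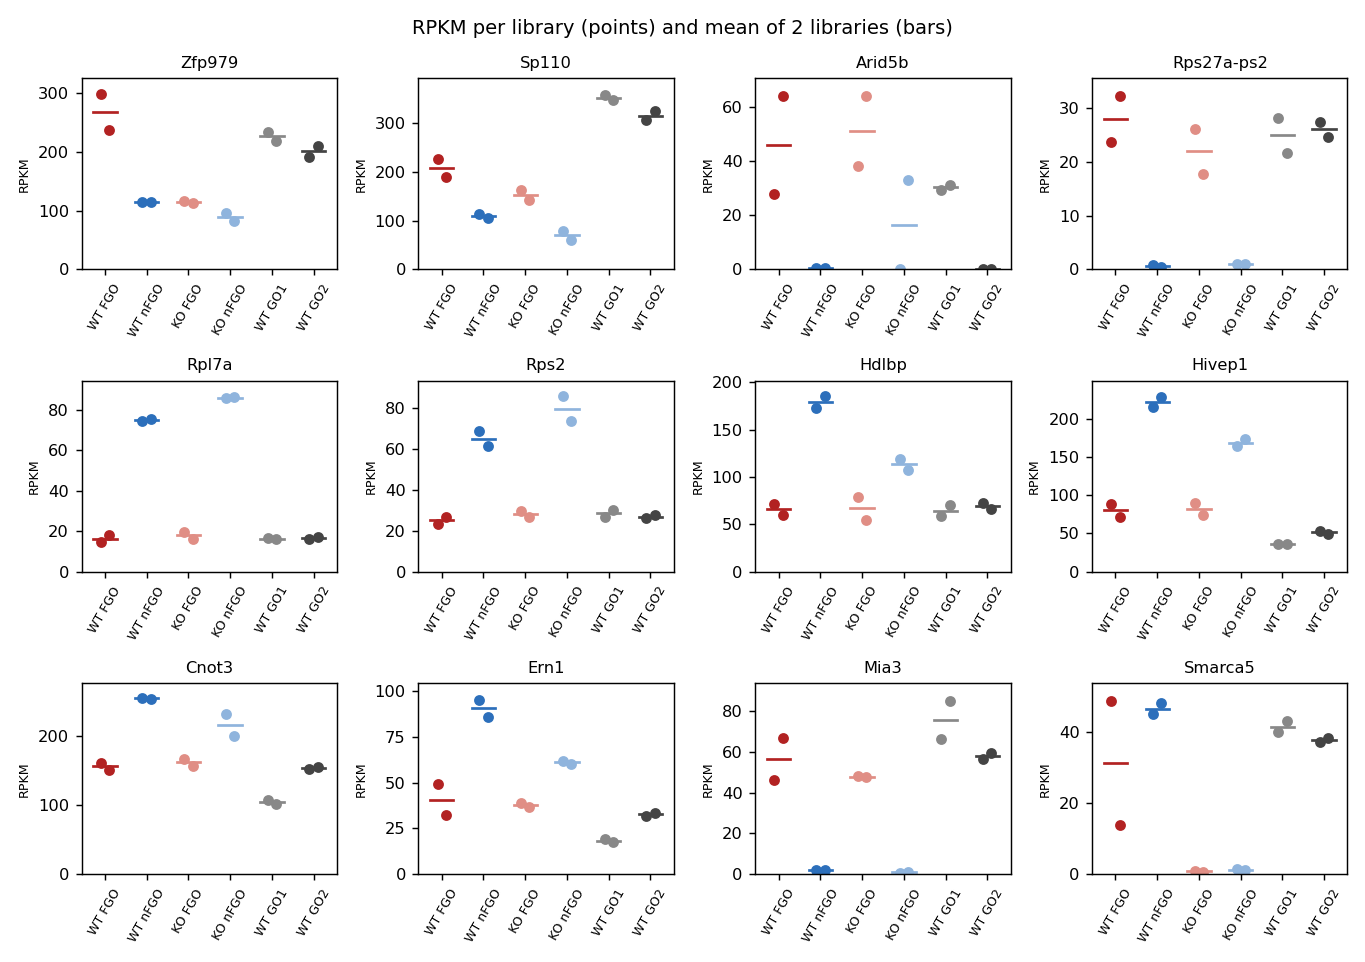
RPKM of 12 genes per library, with 2 points per group and a bar at their mean, for WT FGO, WT nFGO, KO FGO, KO nFGO and the WT growing stages GO1 and GO2. Rpl7a, Rps2, Hdlbp and Hivep1 are high in the 4 nFGO libraries only, and Smarca5 is low in WT FGO replicate 2.

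Promoter windows of 4 of these genes are printed to set their base composition side by side, since the rises and falls differed in it. The sequences are from RefSeq (GRCm38.p6), 250 bases before and 50 after the start of each gene, 5′ to 3′ on the gene's strand. Capitals mark CCAAT or its reverse complement ATTGG, the core of the CCAAT box, and GGGCGG or CCGCCC, the core of the GC box. Zfp979 and Arid5b were higher in WT FGO, at chr4:147642459-147642758 and chr10:68278677-68278976, both on the minus strand. Hivep1 and Hdlbp were lower, at chr13:42051771-42052070 on the plus strand and chr1:93478868-93479167 on the minus strand.
Zfp979: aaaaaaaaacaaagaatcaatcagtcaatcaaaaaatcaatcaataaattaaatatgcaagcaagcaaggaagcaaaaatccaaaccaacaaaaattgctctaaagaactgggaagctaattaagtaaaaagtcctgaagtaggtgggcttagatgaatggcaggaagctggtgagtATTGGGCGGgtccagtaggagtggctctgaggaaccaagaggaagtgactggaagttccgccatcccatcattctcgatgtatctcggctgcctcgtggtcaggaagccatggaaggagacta
Arid5b: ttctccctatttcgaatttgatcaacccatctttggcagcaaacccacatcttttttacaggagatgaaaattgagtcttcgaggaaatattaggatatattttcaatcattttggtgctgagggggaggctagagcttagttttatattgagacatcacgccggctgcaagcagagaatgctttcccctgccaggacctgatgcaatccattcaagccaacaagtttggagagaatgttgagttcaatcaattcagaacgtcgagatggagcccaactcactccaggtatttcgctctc
Hivep1: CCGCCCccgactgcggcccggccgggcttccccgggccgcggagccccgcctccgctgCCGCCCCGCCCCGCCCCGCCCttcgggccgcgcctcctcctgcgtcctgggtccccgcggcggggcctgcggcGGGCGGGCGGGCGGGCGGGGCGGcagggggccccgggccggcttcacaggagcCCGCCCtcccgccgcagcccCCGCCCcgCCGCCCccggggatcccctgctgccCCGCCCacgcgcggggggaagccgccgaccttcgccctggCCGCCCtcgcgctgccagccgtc
Hdlbp: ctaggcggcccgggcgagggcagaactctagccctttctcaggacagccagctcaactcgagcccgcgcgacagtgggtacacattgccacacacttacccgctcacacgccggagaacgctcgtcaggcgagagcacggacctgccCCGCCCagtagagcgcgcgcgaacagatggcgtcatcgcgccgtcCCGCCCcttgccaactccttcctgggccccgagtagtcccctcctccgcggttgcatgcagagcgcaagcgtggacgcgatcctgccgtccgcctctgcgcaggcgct
Zfp979 holds 1 ATTGG that overlaps 1 GGGCGG and has 5 CG pairs, and Arid5b holds neither motif and has 7 CG pairs. Hivep1 holds 15 GC box cores, some of which overlap, and 48 CG pairs. Hdlbp holds 2 GC box cores and 35 CG pairs.

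The table of promoters has a window for 50 of the 118 higher genes, 209 of the 274 lower genes and 10090 of the genes tested. CCAAT on either strand was present in 66 percent of the windows of higher genes, 42.1 percent of those of lower genes and 39.8 percent of all tested. GGGCGG on either strand was present in 44 percent of the windows of higher genes, 64.6 percent of those of lower genes and 60.3 percent of all tested. The median number of CG pairs was 10 in higher genes, 24 in lower genes and 20 in all tested. TATAAA was present in 10 percent of the windows of higher genes, 7.66 percent of those of lower genes and 7.58 percent of all tested. TGACGTCA, the full cyclic AMP response element, was present in 4 percent for higher genes, 3.35 percent for lower genes and 3.25 percent for all tested. Each motif was searched on both strands, and a match is a description of the sequence alone. The other higher genes have no window in the table, so these shares do not cover them. Windows were counted once per gene symbol. Whether windows of related neighbouring genes hold the same copied sequence was not checked.

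None of the 22 tested genes of cyclic AMP signalling and prophase arrest was called by limma in either direction, beside 2.69 percent of all genes. In so short a list, 0 calls do not set these genes apart. Of the 22, 3 had an unadjusted p under 0.05, beside 16.9 percent of all genes, and the median log2 difference was 0.02. Wee2, the oocyte kinase that holds the cyclin-dependent kinase inactive, had 286 and 272 RPKM in WT FGO and 276 and 277 RPKM in WT nFGO. Its log2 difference of 0.01 had a 95 percent interval of -0.21 to 0.24. Gja4, the gap junction protein that joins oocyte and follicle cells, had 333 and 395 RPKM in WT FGO against 286 and 291 RPKM in WT nFGO. Its log2 difference of 0.33 (interval 0.05 to 0.60) had an adjusted p of 0.207 in the limma fit.

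Of 27 genes of the maturation-promoting kinase and meiotic resumption, 1 fell and 0 rose in the limma test. Over all genes 1.88 percent fell and 0.811 percent rose. Of the 27, 11 had an unadjusted p under 0.05, beside 16.9 percent of all genes, and the median log2 difference was 0.11. The one that fell was Cdc25a, a phosphatase that activates cyclin-dependent kinases. It had 16.7 and 14.7 RPKM in WT FGO against 27.2 and 26.3 RPKM in WT nFGO (log2 difference -0.74, adjusted p = 0.0121), and its authors' mean counts stayed within the limit. The call was lost without WT FGO replicate 2 and without either WT nFGO library. Ccnb1, the cyclin of the maturation-promoting kinase, had 771 and 781 RPKM in WT FGO and 598 and 620 RPKM in WT nFGO, with a log2 difference of 0.35 (interval 0.09 to 0.61) and an adjusted p of 0.158.

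Stored oocyte transcripts held few calls, beside 2.69 percent of all genes. In lists this short, so few calls do not set these genes apart. The maternal effect list had 26 tested genes. Of these, 1 was called by limma, Brwd1, which is given below, and 7 had an unadjusted p under 0.05. Of 15 oocyte markers 0 were called by limma, with a median log2 difference of 0.03. An unadjusted p under 0.05 was found for 3 of them, beside 16.9 percent of all genes. Zp2, which encodes a protein of the egg coat, had 1035 and 2164 RPKM in WT FGO against 1254 and 1469 RPKM in WT nFGO. Dppa3, the maternal factor Stella, had 4374 and 5857 RPKM in WT FGO against 5981 and 6243 RPKM in WT nFGO (log2 difference -0.27, adjusted p = 0.251), and it passed the test without WT FGO replicate 2. Btg4, which directs deadenylation of maternal messages, had 2866 and 3118 RPKM in WT FGO and 2823 and 3117 RPKM in WT nFGO. Its log2 difference of 0.01 had an interval of -0.18 to 0.21. Of 43 genes of oocyte-specific families 1 was called, Omt2b, at 5000 and 5153 RPKM in WT FGO against 6031 and 6216 RPKM in WT nFGO (log2 difference -0.27, adjusted p = 0.0216), a call lost with any 1 library left out.

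The machinery of messenger RNA turnover held 3 falls and 0 rises among 33 genes in the limma test, beside 1.88 percent lower and 0.811 percent higher over all genes, with 8 at an unadjusted p under 0.05 and a median log2 difference of -0.06. Cnot3, a subunit of the CCR4-NOT deadenylase, had 161 and 150 RPKM in WT FGO and 255 and 254 RPKM in WT nFGO (log2 difference -0.70, adjusted p = 0.00173). It held its call with each library left out, and its mean count moved past the limit. Cnot1, the scaffold of the same complex, had 35.5 and 24.1 RPKM in WT FGO against 56.2 and 61.0 RPKM in WT nFGO (log2 difference -0.98, adjusted p = 0.0186). Marf1, an RNase of the oocyte, had 14.2 and 10.8 RPKM in WT FGO against 20.7 and 24.5 RPKM in WT nFGO (log2 difference -0.81, adjusted p = 0.0238). The calls of Cnot1 and Marf1 were lost without WT FGO replicate 2 and without either WT nFGO library, which leaves 1 member called in each of these fits. Of 38 genes of poly(A) addition and translational control, Lsm14b alone was called. Lsm14b, a protein of stored RNA granules, had 63.7 and 40.4 RPKM in WT FGO against 103 and 104 RPKM in WT nFGO (log2 difference -1.01, adjusted p = 0.0259), also lost in those 3 fits.

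Genes of the endoplasmic reticulum stress response gave 3 falls and 0 rises among 22 tested by limma, beside 1.88 percent lower over all genes. Of the 22, 7 had an unadjusted p under 0.05, and the median log2 difference was -0.10. In KO oocytes 0 of the 22 were called lower and 2 higher, beside 2.37 percent lower and 1.86 percent higher over all genes. Ern1, Hyou1 and Sel1l, the falls in WT, had KO log2 differences of -0.68, -0.76 and -0.36 without a call. Ern1, the stress sensor IRE1, had 49.3 and 32.2 RPKM in WT FGO and 95.3 and 85.9 RPKM in WT nFGO (log2 difference -1.16, adjusted p = 0.00982). Hyou1, a chaperone, had 2.08 and 2.59 RPKM in WT FGO against 8.44 and 7.37 RPKM in WT nFGO (log2 difference -1.42, adjusted p = 0.0137). Sel1l, which works in the removal of misfolded proteins, had 20.1 and 19.3 RPKM in WT FGO against 35.1 and 34.4 RPKM in WT nFGO (log2 difference -0.79, adjusted p = 0.0461). The libraries of the groups did not overlap for any of the 3, as was true of 47.4 percent of all genes. None of the 3 passed the limma test without WT FGO replicate 2 or with either WT nFGO library left out, and Ern1 alone of them passed without WT FGO replicate 1.

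Chromatin genes showed a like count. Of 35 genes of DNA and histone methylation, 3 fell and 0 rose in the limma test, beside 1.88 percent lower over all genes, with 8 at an unadjusted p under 0.05. Ezh1, a methyltransferase of histone H3 lysine 27, had 9.86 and 8.45 RPKM in WT FGO against 19.5 and 15.8 RPKM in WT nFGO (log2 difference -0.87, adjusted p = 0.0137). The log2 differences of Ehmt1 and Suv39h1, methyltransferases of H3 lysine 9, stood at -0.67 for Ehmt1 and -1.10 for Suv39h1, a gene that reached no more than 2.43 RPKM in any of the 4 libraries. Suv39h1 had mean counts of 2053 in WT FGO and 1474 in WT nFGO in the authors' deposited table, a log2 ratio of 0.15 within the limit. It overlaps Gm14820 on the other strand, which averaged 508 RPKM in WT FGO and 455 RPKM in WT nFGO. None of Ezh1, Ehmt1 and Suv39h1 passed without WT FGO replicate 2 or without WT nFGO replicate 1. Of the 12 remodellers of the Snf2h family and their partners, 0 were called by limma and 1 had an unadjusted p under 0.05.

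Of 28 genes of RNA polymerase II and initiation, Ccnt2 alone was called, beside 2.69 percent of all genes. Ccnt2, a cyclin of the elongation factor P-TEFb, had 14.8 and 13.5 RPKM in WT FGO and 35.6 and 37.2 RPKM in WT nFGO (log2 difference -1.30 ± 0.17, adjusted p = 0.00126). It passed with each library left out, while its mean counts in the authors' deposited table were 1179 in WT FGO and 1120 in WT nFGO, within the limit. Rn7sk, the noncoding RNA that binds and holds P-TEFb inactive, was called too, at 9.95 and 8.53 RPKM in WT FGO against 17.7 and 20.4 RPKM in WT nFGO (log2 difference -0.97, adjusted p = 0.0122). That call was lost without WT FGO replicate 2 and without WT nFGO replicate 2.

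Few energy genes were called. Of 81 nuclear genes of oxidative phosphorylation, 3 fell and 0 rose in the limma test, beside 1.88 percent lower over all genes. Of the 81, 26 had an unadjusted p under 0.05 and 59 lay below 0, against 51 percent of all genes, with a median log2 difference of -0.13. Atp5g3, a subunit of the ATP synthase, fell by 0.53 on the log2 scale, with 79.9 and 93.5 RPKM in WT FGO against 120 and 132 RPKM in WT nFGO. Without WT FGO replicate 1 and without WT nFGO replicate 2, 0 members passed. In KO oocytes 11 of the 81 fell and 0 rose, beside 2.37 percent lower over all genes. None of 25 genes of glycolysis and 1 of 23 genes of cholesterol synthesis was called. That one was Insig1, a sterol sensor of the endoplasmic reticulum, which had 28.6 and 32.0 RPKM in WT FGO against 47.7 and 49.6 RPKM in WT nFGO (log2 difference -0.67, adjusted p = 0.00801). Its call was lost without WT FGO replicate 1 and without WT nFGO replicate 2.

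Single calls came from other lists. Pdpk1, a kinase that acts below phosphoinositide 3-kinase, had 19.1 and 25.9 RPKM in WT FGO against 51.7 and 52.7 RPKM in WT nFGO (log2 difference -1.19, adjusted p = 0.00944). Brwd1, a bromodomain gene of the maternal effect list, differed by -0.90, Ckap5, a microtubule polymerase of the spindle list, by -0.72, and Anapc13, a subunit of the anaphase-promoting complex, by -0.62. Camk2g, the calcium-dependent kinase of egg activation, differed by -0.74. Each of these 5 lost its call in 3 or 4 of the 4 fits with 1 library left out. No member of the lists of immediate early genes (14 tested), heat shock (16), the integrated stress response (25), the proteasome (33) or the egg coat and secreted factors (16) was called by limma. Unadjusted p-values under 0.05 numbered 3, 3, 2, 3 and 3 in these lists. Over all genes 2.69 percent were called and 16.9 percent had an unadjusted p under 0.05.

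**Figure D4:**
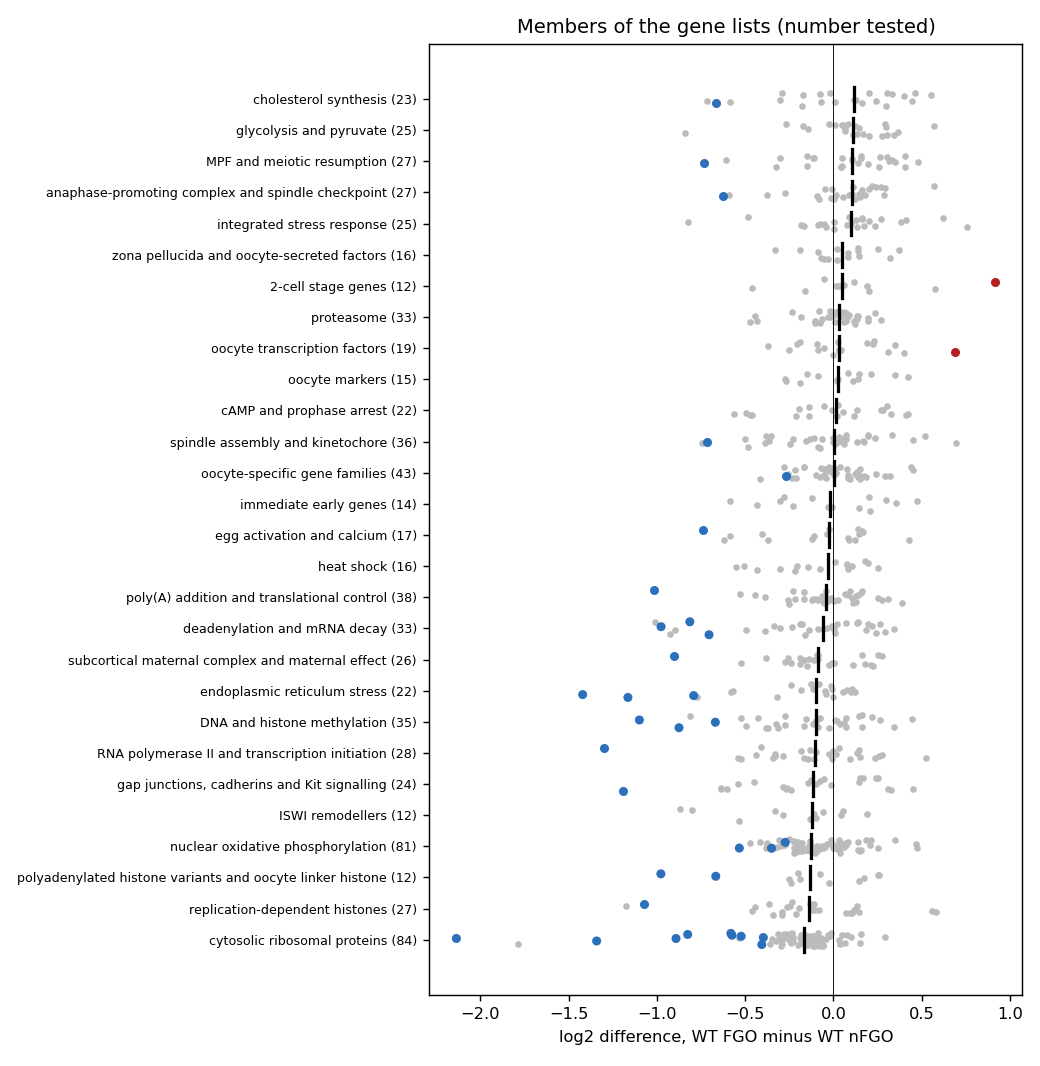
Log2 difference (WT FGO minus WT nFGO, x axis) of every tested member of the lists with 10 or more tested genes (y axis, with the number tested). Blue points are members called lower, red points members called higher, grey points members not called, and the black bar is the list's median.

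Because the groups carry different RNA labels, RNAs that lack a regular poly(A) tail were looked at apart. Of 6 tested, 1 fell, the Rn7sk already described, beside 1.88 percent lower over all genes, and the median log2 difference was -0.93. Snord118, a small nucleolar RNA, had 172 and 236 RPKM in WT FGO against 684 and 414 RPKM in WT nFGO (adjusted p = 0.416). Rny1, a Y RNA, had 13.7 and 94.2 RPKM in WT FGO against 59.4 and 118 RPKM in WT nFGO (adjusted p = 0.381), so its libraries overlapped. Of the 6, 5 had a log2 difference below 0, that is, higher values in the libraries labelled polyA RNA.

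Histone genes expressed with DNA replication mostly end in a stem-loop rather than a tail. Of 27 tested, 1 fell and 0 rose in the limma test, beside 1.88 percent lower and 0.811 percent higher over all genes. Of these, 3 had an unadjusted p under 0.05, and the median log2 difference of the 27 was -0.14. Hist1h1a, a linker histone gene, had 28.5 and 25.5 RPKM in WT FGO and 62.5 and 53.3 RPKM in WT nFGO (log2 difference -1.07, adjusted p = 0.00679), a call lost without WT FGO replicate 2 and without WT nFGO replicate 1. Hist1h2bc, the most abundant, had 237 and 266 RPKM in WT FGO and 218 and 240 RPKM in WT nFGO (log2 difference 0.13, adjusted p = 0.698). Of the 12 tailed variants, H3f3a and H1fx were called lower, and both calls were lost with any 1 library left out. H3f3a, which encodes histone H3.3, had 482 and 489 RPKM in WT FGO against 794 and 748 RPKM in WT nFGO. Its mean counts in the authors' deposited table gave a ratio of 0.0032 after the median was removed.

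Follicle cells could enter such samples, and hormone acts on them. Of 30 granulosa and cumulus markers listed, 9 are in the table and their RPKM summed to 101 and 115 in WT FGO against 108 and 112 in WT nFGO. The sums came mostly from Esr2, with 64.5 and 68.8 RPKM in WT FGO against 62.1 and 68.5 RPKM in WT nFGO, and from Cyp19a1, with 23.1 and 31.6 RPKM in WT FGO against 28.9 and 23.6 RPKM in WT nFGO. Inha, the inhibin alpha subunit and a defining granulosa product, was at 0.0782 and 0 RPKM in WT FGO against 0.564 and 2.83 RPKM in WT nFGO (limma adjusted p = 0.153). With a pseudocount of 0.1 in place of 1 its WT difference was called lower. Its mean counts in the authors' deposited table were 0.824 in WT FGO and 28.7 in WT nFGO, a log2 ratio of -4.36 past the limit. In KO oocytes Inha was at 0.45 and 0.472 RPKM in KO FGO against 4.83 and 12.8 RPKM in KO nFGO, and that difference was called (adjusted p = 0.00542). The 3 theca and stroma markers in the table, of 11 listed, summed to 4.26 and 3.96 RPKM in WT FGO against 4.50 and 3.68 RPKM in WT nFGO. Of 12 blood, endothelial and immune markers, Cd68 is in the table, at 2.51 and 2.66 RPKM in WT FGO against 2.1 and 1.83 RPKM in WT nFGO. The other listed markers were not analysed here, and the part of follicle cells in the calls was not tested. In such pooled samples fewer cells of a type and less RNA per cell cannot be told apart.

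Several of the largest RPKM differences were absent from the counts or much smaller there. Zdhhc2 (chromosome 8, 40423815 to 40510268, plus strand), a palmitoyltransferase gene, had 0.388 and 0.954 RPKM in WT FGO against 69.2 and 75.0 RPKM in WT nFGO (log2 difference -5.47 ± 0.29, adjusted p = 5.03e-07). Its mean counts in the authors' deposited table were 594 in WT FGO and 493 in WT nFGO. Zdhhc2 overlaps Cnot7 on the other strand, which had 666 and 652 RPKM in WT FGO against 531 and 566 RPKM in WT nFGO and was not called.

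Mia3 (chromosome 1, 183326725 to 183369553, minus strand), which encodes the collagen export factor TANGO1, differed the other way. It had 46.1 and 66.7 RPKM in WT FGO against 1.83 and 2.19 RPKM in WT nFGO (log2 difference 4.23 ± 0.18, adjusted p = 6.12e-08), with mean counts of 1620 in WT FGO and 1439 in WT nFGO in the authors' deposited table. Vmn1r139 (chromosome 7, 22069057 to 22097907, plus strand), a vomeronasal receptor gene, had 0.0904 and 0 RPKM in WT FGO against 83.8 and 100 RPKM in WT nFGO. Its counts in the authors' deposited table were 1854 in WT FGO and 2454 in WT nFGO, a log2 ratio of -0.74 against a log2 difference of -6.47 in RPKM. Foxj3, a forkhead transcription factor gene, had 143 and 99.3 RPKM in WT FGO and 413 and 403 RPKM in WT nFGO, and its counts in the authors' deposited table were 5862 in WT FGO and 5938 in WT nFGO.

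AC161456.1, for which no biotype was found, and the long noncoding RNA gene Gm33051 were listed at 0 in both WT FGO libraries. AC161456.1 stood at 9.03 and 6.16 RPKM in WT nFGO, and the authors' deposited table gives it mean counts of 1396 in WT FGO and 1294 in WT nFGO. It overlaps Lsm3 on the same strand. Gm10552 had 25.0 and 28.1 RPKM in WT FGO against 0 and 1.51 RPKM in WT nFGO, while the authors' deposited table holds 325 counts for WT FGO and 658 for WT nFGO. Zdhhc2, Mia3, Vmn1r139, Foxj3, AC161456.1, Gm33051 and Gm10552 kept their calls with each WT library left out, and for each of them the KO libraries differed in the same direction. The RPKM values and the counts came from different programs, and why they part for these genes was not tested.

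The growing oocytes place the calls. For 65 of the 118 higher genes (55.1 percent) the 4 nFGO libraries of both genotypes lay below all 12 other libraries, which held for 2.02 percent of all genes tested. For 122 of the 274 lower genes (44.5 percent) they lay above all 12 others, against 2.93 percent of all genes. These shares use the WT libraries that made the calls, so they describe the calls and do not test them. The 12 others also share the RNA label and time of deposition of WT FGO. Set against the range of the 4 WT growing libraries, both WT nFGO libraries and not the WT FGO libraries lay outside it for 41 of the higher and 96 of the lower genes. The reverse, with WT FGO alone outside, held for 17 of the higher and 28 of the lower genes. Among genes not called, WT nFGO alone lay outside for 12.8 percent and WT FGO alone for 8.7 percent. For 18 of the higher and 29 of the lower genes WT FGO and WT nFGO left the growing range on opposite sides.

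The same comparison in KO oocytes uses other libraries and the same split of hormone, RNA label and time of deposition. There 271 genes were higher in KO FGO than in KO nFGO (1.86 percent) and 345 lower (2.37 percent). Of the 118 genes that rose in WT, 108 had the same sign in KO and 64 were called in the same direction, 54.2 percent of the WT calls and 23.6 percent of the KO calls. Of the 274 that fell in WT, 252 had the same sign and 97 were called, 35.4 percent of the WT calls and 28.1 percent of the KO calls. The WT rises had a median log2 difference of 1.13 in WT and 0.73 in KO, and the WT falls -0.89 in WT and -0.48 in KO. The genes were chosen on their WT values, so the WT medians are not an independent measure of size. Only 2 genes, Gm2309 and Mthfsd, were called in opposite directions.

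**Figure D5:**
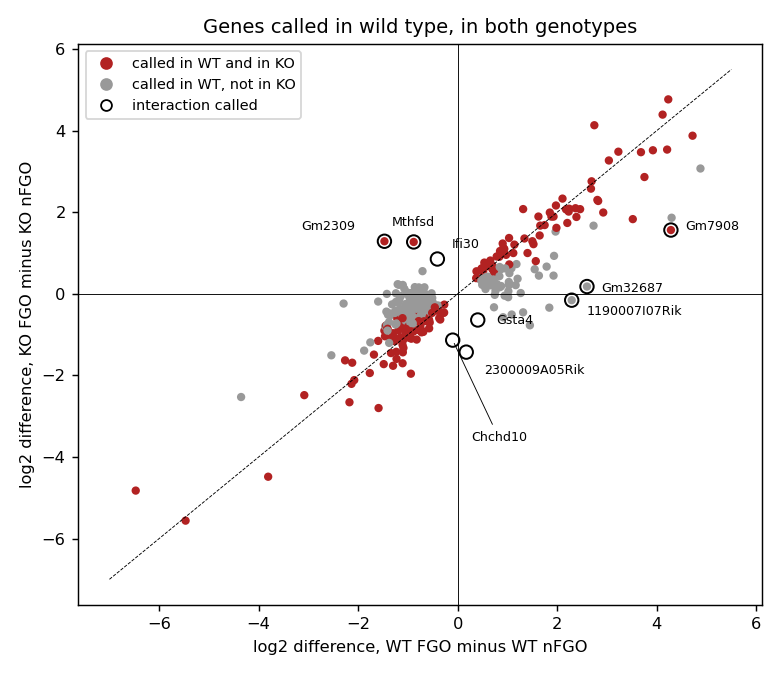
Log2 difference of KO FGO minus KO nFGO (y axis) against that of WT FGO minus WT nFGO (x axis) for the genes called in WT, with genes called in KO in red. Circles mark the 9 genes whose difference itself differed between genotypes, whether or not they were called in WT, and the dashed line marks equal values.

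The test of the difference between genotypes called 9 genes (0.0618 percent of those tested), 6 with a higher (0.0412 percent) and 3 with a lower value in WT (0.0206 percent), with 1205 at an unadjusted p under 0.05. With 1 library left out the count was 2 to 28, with 28 without WT FGO replicate 2, 17 without WT nFGO replicate 1, 18 without KO nFGO replicate 1 and 2 without KO nFGO replicate 2. The fit of the compared libraries alone called 1. Gm7908 rose further in WT. In KO it stood at 6.83 and 6.02 RPKM in FGO against 1.84 and 1.21 RPKM in nFGO, beside the WT values above, and the log2 differences of the genotypes differed by 2.72 (interaction, limma adjusted p = 0.00234). Gm32687 had 3.91 and 7.02 RPKM in WT FGO against 0.033 and 0.0394 RPKM in WT nFGO, whereas KO FGO had 3.75 and 3.64 RPKM against 2.90 and 3.42 RPKM in KO nFGO (interaction 2.42, adjusted p = 0.0116). The protein-coding gene 1190007I07Rik had 53.2 and 96.4 RPKM in WT FGO against 13.8 and 13.9 RPKM in WT nFGO, and 65.0 and 55.1 RPKM in KO FGO against 73.0 and 61.3 RPKM in KO nFGO (interaction 2.45, adjusted p = 0.0498). Gm32687 and 1190007I07Rik were also split between the WT growing stages, which share 1 RNA label. Gm32687 had 4.82 and 5.95 RPKM in WT GO1 against 0 and 0.0475 RPKM in WT GO2. For 1190007I07Rik the values were 54.2 and 46.4 RPKM in WT GO1 against 12.7 and 17.2 RPKM in WT GO2. Gm7908 was not split, at 26.9 to 30.2 RPKM in the WT growing libraries. What moved these levels was not tested.

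Gsta4, a glutathione transferase gene, went in opposite directions, with 234 and 218 RPKM in WT FGO against 185 and 158 RPKM in WT nFGO, and 80.2 and 70.8 RPKM in KO FGO against 120 and 117 RPKM in KO nFGO (interaction 1.04, adjusted p = 0.0498). Mthfsd, named for a methenyltetrahydrofolate synthetase domain, had 3.39 and 2.29 RPKM in WT FGO against 6.94 and 5.2 RPKM in WT nFGO, and 3.94 and 3.08 RPKM in KO FGO against 0.934 and 0.789 RPKM in KO nFGO (interaction -2.16, adjusted p = 0.018). Ifi30, a lysosomal thiol reductase gene, had 16.0 and 17.2 RPKM in WT FGO against 22.7 and 22 RPKM in WT nFGO, and 31.6 and 27.3 RPKM in KO FGO against 16.7 and 15.0 RPKM in KO nFGO (interaction -1.26, adjusted p = 0.0308). Of the 8 named by the rule for named genes, Gm7908 alone kept its interaction call with each of the 8 fully grown libraries left out.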

How the data were processed

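RNA was measured in pools of 20 oocytes by single-end sequencing, and the 16 RNA-seq libraries were used. Per the submitters' processing notes, Trim Galore 0.4.5, HISAT2 2.1.0, Cufflinks 2.2.1, Cuffnorm and DESeq 1.34.1 were used with build mm10, with no role or order given. The authors deposited 1 RPKM column per library, not pooled. They also deposited a scaled mean count per group, a signal with no value per library, computed by DESeq per the file headers, in separate comparisons for FGO and nFGO. How strand and multiply mapped reads were treated is not given in the sources used here.

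The table holds 16975 gene IDs. The 35 IDs written on several lines with differing values were left out, and 16936 of the remaining 16940 matched a symbol. The 14557 genes that reached 1 RPKM in 2 or more of the 16 libraries were tested with limma 3.58.1 in R 4.3.3 on log2(RPKM + 1), with 8 group means, 8 residual degrees of freedom, a variance trend and Benjamini-Hochberg adjustment at 0.05. Intervals are 95 percent. On simulated data with this design, 26.9 percent of 1.5-fold, 76.1 percent of 2-fold and 97 percent of 4-fold changes were recovered, and 5.67 percent of calls were false. Changes were planted only in genes at 5 RPKM or more in WT nFGO, in a single run with a spread per gene common to all groups. Recovery below that level, or with spreads that differ between groups, was not simulated. Among RPKM values of 0.5 or less, 24.6 to 33.2 percent of ratios between 2 libraries lay at ratios of whole numbers up to 4. These shares are for the best relative depth of each pair, against 4.74 to 5.43 percent at a typical depth. Low values thus stepped by whole reads only in part, so library depth was not derived and no counting interval is given.

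Genes were named by a rule: up to 15 rises and 15 falls of the largest size at 5 RPKM or more, up to 4 called and 2 uncalled members of each list, detected follicle and blood markers, Smarca5, and up to 5 interaction calls each way. Further genes were named after their values were seen: those moved in both measures, and copies with their parents. The members and lists were chosen with earlier results of these data known. Alternatives were other pseudocounts, filters and normalizations, no variance trend, a block, a fit of the compared libraries alone and each library left out. The 15 listed mitochondrially encoded genes and the 8 ATAC-seq libraries were not analysed here. Biotypes and promoters are from RefSeq (GRCm38.p6).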

Additional observations from a re-analysis of the deposited data

Results flagged for a closer look

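For 9 genes the difference between FGO and nFGO itself differed between WT and KO oocytes by the interaction term in limma. The values below are the WT log2 difference minus the KO log2 difference. Groups of 2 libraries are too small for a test of single outlying libraries.

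The value was above 0 for 6 genes. It was 2.72 for Gm7908, 2.45 for 1190007I07Rik, 2.42 for Gm32687, 1.60 for 2300009A05Rik, 1.04 for Chchd10 and 1.04 for Gsta4. 2300009A05Rik had 30.3 and 26.1 RPKM in WT FGO against 26.7 and 23.1 RPKM in WT nFGO, and 5.03 and 5.81 RPKM in KO FGO against 13.1 and 20.2 RPKM in KO nFGO. Chchd10, a mitochondrial protein gene, had 133 and 132 RPKM in WT FGO against 139 and 145 RPKM in WT nFGO, and 77.7 and 82.7 RPKM in KO FGO against 162 and 194 RPKM in KO nFGO.

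The value was below 0 for 3 genes, at -2.76 for Gm2309, -2.16 for Mthfsd and -1.26 for Ifi30. Gm2309 had 0.0573 and 0.196 RPKM in WT FGO against 1.94 and 2.32 RPKM in WT nFGO, and 8.44 and 5.77 RPKM in KO FGO against 2.33 and 2.22 RPKM in KO nFGO. In WT growing oocytes Gm2309 too was split by stage, at 0 and 0.0296 RPKM in GO1 against 3.56 and 1.64 RPKM in GO2. Ifi30 was not, at 32.3 to 35.2 RPKM.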

How the results depend on the processing

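The 392 calls of WT FGO over WT nFGO (118 higher, 274 lower) became 339 to 464 under 8 alternatives of pseudocount, filter, scaling, variance trend and block, and each direction stayed within 1.5 times. With the compared libraries alone there were 106 calls, 50 higher and 56 lower, of which 92 were among the 392. Keeping only calls that the authors' mean counts also show, a choice made after seeing the data, left 199. With 1 of the 4 libraries left out, 126 to 270 genes were called (55 to 82 higher, 71 to 188 lower), the fewest without WT nFGO replicate 2. The lone library left in a group is then assumed to vary like the other groups. The 9 interaction calls became 4 with no variance trend and 1 with the compared libraries alone, and 2 to 28 with 1 library left out, 28 without WT FGO replicate 2 and 2 without KO nFGO replicate 2. The share of calls with WT nFGO alone outside the growing range was 34.9 percent, 40.6 percent with the compared libraries alone and 30.5 to 40 percent with 1 library left out. Libraries with the same replicate number did not deviate together (r = 0.0967 in WT, 0.0378 in KO), so they share only a number. With the replicate block 413 WT genes (122 higher, 291 lower) and 7 interactions were called, with 36.6 percent of calls placed as above. Of the 71 named genes called, 31 kept their call under every alternative run, and no named gene reversed with a call. The cause of these shifts was not tested. Of 66 named genes not called, 7 passed under an alternative. With 2 libraries a group and unknown depth, small changes are often missed.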
